A study of Homo sapiens with 12 samples.

Results

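The RNA of single HEK293T cells was compared with that of HEK293T cell lysate, both amplified and counted by CEL-seq2. The 30 wells examined, of 403 in the series, were the 20 single cells of 2 libraries and the 10 wells of 1 lysate library, chosen by the table in which each was deposited. HEK293T is a line of human embryonic kidney origin that carries the SV40 large T antigen. The labels name no edit and no drug for any of these wells. Cells were dissociated with trypsin and stained so that dead cells could be excluded before sorting, whereas how the lysate was made and from how many cells is not given in the sources used here.

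In CEL-seq2, a primer with a run of T anneals to the poly(A) tail, adds a barcode for the well and a unique molecular identifier (UMI), and the copies of all wells of a library are amplified together by T7 transcription. A UMI is therefore meant to stand for 1 captured RNA molecule near its 3′ end. Molecules of a gene that carry the same UMI sequence in a well are counted once. The paper describes CEL-seq as seemingly more likely than LAST-seq and SMART-seq to detect RNA besides mature mRNA and to amplify genomic DNA. The label of single cells replicate 1 names the ERCC and the A60 mix of spike-in RNA, without saying which wells received which. In replicate 2 and in the lysate, ERCC went with the first 5 barcodes. A60 went with the other 5 in the lysate, and for the other 5 in replicate 2 no mix is named. All 3 libraries used the same 10 barcodes, so a barcode names a well and not a cell.

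After the spike-ins were removed, the wells held between 94379 and 195438 UMIs in single cells replicate 1, between 80558 and 186842 in replicate 2 and between 74047 and 123213 in the lysate. Of the 10 HEK293T markers, 9, 8 and 9 were detected in the 3 libraries. The 7 blood and immune markers held 0, 1 and 1 UMIs and the 5 fibroblast markers 20, 19 and 6. The lysate is a single library. No p-value can be given for a difference between lysate and cells, since wells amplified in 1 pool are not replicates of the condition. The ratio between the 2 single-cell libraries is given beside the results as the only spread between libraries, and the intervals below cover counting error only. Several wells stood apart by single measures. Those that did so by 3 or more were the single cell AGACTC of replicate 2, with the lowest mitochondrial share, and the lysate well AGACTC, with the highest total of its library.

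Mitochondria keep a small circular genome that encodes subunits of the respiratory chain, the mitochondrial rRNAs and the tRNAs that lie between them. Both strands are transcribed as long precursors, from which the mRNAs are cut and given poly(A) tails inside the organelle. The heavy-strand transcript yields all of the mRNAs but MT-ND6, and several mRNAs end within their stop codon, which polyadenylation completes.

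The share of UMIs from the mitochondrial genome was higher in each lysate well than in each single cell. The lowest, median and highest wells were at 6.13%, 7.48% and 8.59% in single cells replicate 1 and at 4.96%, 9.03% and 11.9% in replicate 2. They were at 13.4%, 14.6% and 15.3% in the lysate. The groups did not overlap. The mean share of the lysate wells, 14.5% ± 0.626 (SD, n = 10 wells), was 1.76 times that of the single cells, or 1.93 times replicate 1 and 1.61 times replicate 2. The 2 single-cell libraries differed by 1.202 times. Over summed UMIs the share was 7.47% (exact binomial interval 7.43 to 7.52%) in replicate 1, 9.23% (9.19 to 9.28%) in replicate 2 and 14.5% (14.4 to 14.6%) in the lysate. Without the single cell AGACTC, the ratio of the mean shares was 1.71. The share also depended on the unit. In replicate 1, for which reads were deposited too, mitochondrial genes took 13.1% of the reads and 7.49% of the UMIs, averaged over cells, and reads of the other libraries were not analysed here. The part that UMI counting has in the difference between lysate and cells was not tested beyond the correction for repeated UMIs given below.

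The mean number of mitochondrial UMIs per well was similar in the 3 libraries, and the mean number of all other UMIs was not. A well held on average 11616 mitochondrial UMIs in replicate 1, 13445 in replicate 2 and 12242 in the lysate, and the wells overlapped. The other UMIs averaged 143796, 132144 and 72318, which is 0.524 times the single cells in the lysate. Here too the wells overlapped, at 63144 to 105486 in the lysate and 76562 to 183451 in the single cells. The ERCC spike-in rows held a mean of 3663 UMIs per well in replicate 1, 1784 in replicate 2 and 69 in the lysate. The lysate was at 0.0253 times the single cells, and the wells did not overlap. In replicate 2 the rows held 2225 to 4540 UMIs in wells assigned ERCC and 236 to 293 where no mix is named. Its mean of 1784 therefore lies near neither set. Within the lysate they ranged from 58 to 90 over the wells of both mixes. Less RNA of a gene per well and less capture or fewer reads of it cannot be told apart from these tables. The reason is that reads were subsampled before UMIs were counted. The paper describes the same volume and dilution of each spike-in mix for tubes of single cells and of lysates. Why the lysate wells held fewer spike-in UMIs was not tested.

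**Figure D1:**
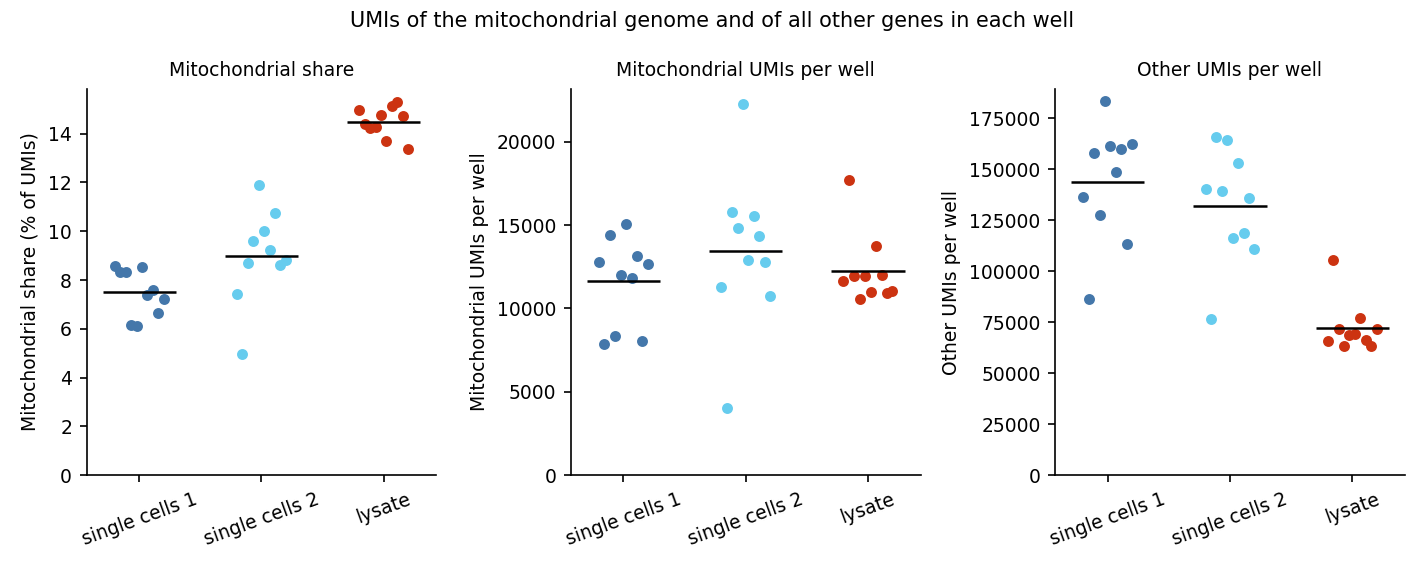
Mitochondrial share of UMIs in percent, mitochondrial UMIs and all other UMIs in each of the 10 wells of the 3 libraries, where points are wells and lines are means. The lysate wells lie between 13.4% and 15.3%, above all single cells. Their mitochondrial UMIs overlap with those of the cells. Their other UMIs are lower on average but overlap as well.

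All 15 mitochondrial mRNA and rRNA genes had a higher mean in the lysate than in either single-cell library. UMIs were scaled to the total of the well times the median total of the 30 wells, 131063, so values below are scaled UMIs per well. A gene was called where the lysate lay past 2-fold in 1 direction against both single-cell libraries, with 0.5 added. Among the 15 genes, 1 was called higher, where 2.99% of the 11715 genes tested were called higher and 13.4% lower. For 6 of the 15, each lysate well lay above each single cell, which held for 0.606% of the genes tested.

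The primer anneals to the poly(A) tail, which is not printed here. The encoded 3′ ends of those 6 mRNAs are shown with the letters of the stop codon in capitals. They come from the GENCODE transcripts on GRCh38, plus strand of the mitochondrial chromosome. By annotated gene ends, the stop codon is incomplete for 5 of the 6, and for 6 of all 13 mitochondrial mRNA genes. Base 9207, the last of MT-ATP6, is also annotated as the first of MT-CO3. Where the MT-ATP6 mRNA itself ends was not examined.
MT-ND1, chrM:4233-4262: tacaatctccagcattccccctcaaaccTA
MT-ATP6, chrM:9178-9207: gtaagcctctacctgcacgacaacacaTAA
MT-CO3, chrM:9961-9990: tgtatgtctccatctattgatgagggtctT
MT-ND3, chrM:10375-10404: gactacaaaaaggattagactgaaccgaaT
MT-ND4, chrM:12108-12137: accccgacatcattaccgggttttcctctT
MT-CYB, chrM:15858-15887: taattgaaaacaaaatactcaaatgggccT

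MT-ND1, a membrane subunit of complex I, was the gene called higher. Its lowest, median and highest wells were at 324, 572 and 646 scaled UMIs in replicate 1, at 208, 559 and 854 in replicate 2 and at 1142, 1419 and 1514 in the lysate. The log2 ratio was 1.33 against each single-cell library, beside 0.00 between those libraries (0.0032). MT-ND4, another membrane subunit of complex I, was at 971, 1241 and 1580, at 750, 1374 and 1742, and at 2240, 2675 and 2981. Its log2 ratios were 1.07 and 0.99, so it missed the 2-fold limit against replicate 2 alone. The complex I subunit MT-ND3 had ratios of 0.996 and 0.81 and was not called.

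MT-ATP6, a subunit of the proton channel of ATP synthase, was at 1083, 1266 and 1622 scaled UMIs in replicate 1, at 374, 1191 and 1486 in replicate 2 and at 1787, 2065 and 2253 in the lysate. MT-CO3, a subunit of cytochrome c oxidase, was at 595, 779 and 975, at 198, 899 and 1113, and at 1119, 1258 and 1330. MT-CYB, the cytochrome of complex III, had medians of 700, 778 and 1365. The log2 ratios of these genes against the 2 single-cell libraries lay between 0.59 and 0.91.

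The catalytic subunits of cytochrome c oxidase differed more between the 2 single-cell libraries than between the lysate and replicate 2. MT-CO1 had a median of 241 scaled UMIs in replicate 1, 661 in replicate 2 and 930 in the lysate. Its log2 ratio was 1.92 against replicate 1, 0.52 against replicate 2 and -1.39 between the single-cell libraries. MT-CO2 showed 1.83, 0.48 and -1.35 and MT-ND4L, which overlaps MT-ND4, showed 1.78, 0.73 and -1.05. For these 3 genes the size of the difference from the lysate depended on the single-cell library used.

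MT-ND5 had the smallest difference of the 15, with log2 ratios of 0.79 and 0.13. Its ratio was -0.088 when only the wells assigned the ERCC mix were used, so its direction is not firm. MT-ND6, the mRNA of the light strand, showed 1.41 and 0.81. MT-ND5 and MT-ND6 are neighbours on opposite strands, and whether the counting used strand is not given in the sources used here, so their reads cannot be told apart. The rRNAs MT-RNR1 and MT-RNR2 had log2 ratios of 1.03 and 0.28 and of 0.76 and 0.44, and their wells overlapped. In the fullest well, MT-RNR2 reached 86.8% of the 4096 UMI sequences that 6 random bases allow. When each value was corrected for repeated UMI sequences, the mitochondrial shares became 8.60%, 10.5% and 16.2%, a ratio of 1.69.

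**Figure D2:**
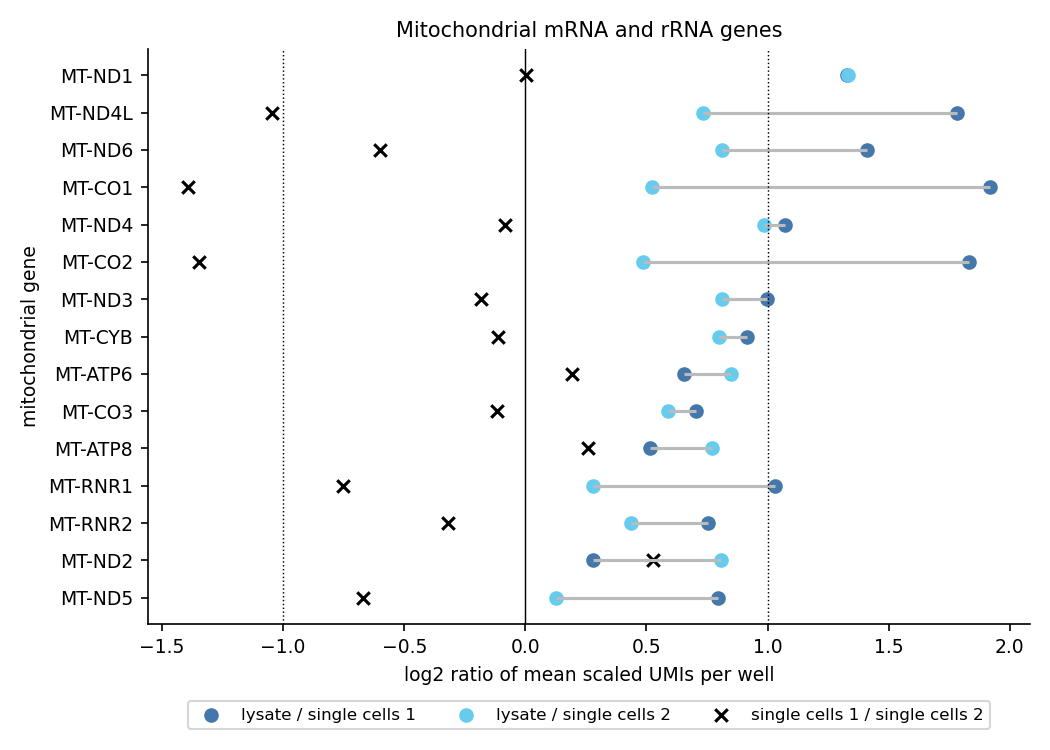
Log2 ratio of mean scaled UMIs per well for the 15 mitochondrial mRNA and rRNA genes, with circles for the lysate over each single-cell library, crosses for replicate 1 over replicate 2 and dotted lines at 2-fold. All circles lie above 0, and MT-CO1, MT-CO2 and MT-ND4L have the widest distance between the 2 circles.

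Of the 22 mitochondrial tRNA genes, 20 passed the limit of 1 scaled UMI per well. Of these, 3 were called higher and none lower, beside 2.99% and 13.4% of all genes tested. Those 3, MT-TA, MT-TN and MT-TC, form a cluster with MT-TY on the light strand. MT-TC summed to 48, 135 and 239 UMIs over the wells of replicate 1, replicate 2 and the lysate, and MT-TN to 63, 160 and 236. MT-TY, at 34, 193 and 187 UMIs, was past 2-fold against replicate 1 alone. MT-TA held 8, 7 and 19 UMIs. The tRNAs themselves are not polyadenylated mRNAs, and UMIs assigned to them cannot be told apart here from those of precursors or of the genes beside them.

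Mitochondrial genes have near copies in the nuclear genome, and counts may be split between a gene and its copy. The pseudogenes of mitochondrial genes took 3.10% of the summed UMIs in replicate 1, 3.47% in replicate 2 and 5.42% in the lysate. MTATP6P1 on chromosome 1 was identical to MT-ATP6 at 98.5% of 681 aligned bases, and MTND1P23 to MT-ND1 at 99.4% of 349. The last 30 bases of MTATP6P1, shown for comparison with those of MT-ATP6 above, were the same, with the stop codon in capitals.
MTATP6P1, chr1:634347-634376, plus strand: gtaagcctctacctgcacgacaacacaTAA

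MTND1P23 was at medians of 597 and 540 scaled UMIs in the single-cell libraries and 1440 in the lysate, with log2 ratios of 1.27 and 1.39, much as for MT-ND1. MTND4P12 went the other way. It held medians of 665, 639 and 389 scaled UMIs, and its log2 ratios were -0.87 and -0.61 where those of MT-ND4, 95.8% identical over 1376 bases, were above 0. Values of these pairs are uncertain one by one. With the pseudogenes added, the mitochondrial share was 10.6%, 12.4% and 19.9%, and the ratio 1.73.

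Among nuclear genes, processed pseudogenes made up most of those called higher and protein-coding genes most of those called lower. Of the 346 nuclear genes called higher, 132 were pseudogenes of ribosomal proteins (38.2%) and 108 other processed pseudogenes (31.2%), against 3.25% and 5.51% of the nuclear genes tested. Of the 1567 called lower, 1383 were protein-coding (88.3%, against 83.4% of those tested). The 2 single-cell libraries differed past 2-fold for 821 genes in 1 direction and 643 in the other, 7.01% and 5.49%, so changes of this size between libraries were common. The median log2 ratio over all genes tested was -0.46, or -0.54 and -0.32 against each single-cell library.

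That median depended on the scaling. With totals of nuclear genes alone it was -0.37, with the TMM factors of edgeR -0.11, and with the median-ratio factors of DESeq2 -0.071. The shifts were 0.089, 0.36 and 0.39. The share of calls that were higher moved from 18.3% with total scaling to 43.2% with TMM factors and 46.8% with median-ratio factors. These called 639 and 680 genes higher and 839 and 774 lower. Of the 1567 genes called lower with total scaling, 53.5% and 49.4% were still called, whereas an upward shift of this kind keeps the higher calls by construction. Class medians are therefore read below against the median of all genes.

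The ribosomal protein pseudogenes had a median log2 ratio of 1.06 over 380 tested, with 132 called higher and 1 lower. The median was 1.48 against replicate 1 and 0.82 against replicate 2, beside -0.68 between the single-cell libraries. Wells overlapped in the share of these pseudogenes, which reached 7.70% in replicate 2 and began at 7.22% in the lysate. Their summed share was 3.71%, 5.57% and 8.43%. They are retrocopies of the abundant mRNAs of ribosomal proteins and can share reads with them, so single members are uncertain. The 79 ribosomal protein genes themselves had a median of 0.35, which split into 0.65 against replicate 1 and 0.16 against replicate 2, beside -0.44 between the single-cell libraries. Of them, 2 (2.53%) were called higher, near the 2.99% of all genes, and none lower, beside 13.4% of all genes. RPSA, of the small subunit, was at medians of 27.7, 76.2 and 142 scaled UMIs. Its log2 ratios were 2.24 and 1.23, beside -1.01 between the single-cell libraries. RPL29, of the large subunit, was at 19.7, 28.5 and 69.3, with ratios of 1.74 and 1.31. In both genes each lysate well lay above each single cell. RPS2 also did not overlap, with ratios of 0.83 and 0.95, while RPS4X overlapped at 0.63 and 0.37.

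Other groups of highly used mRNAs lay near equality, above the median of all genes. The 15 glycolysis genes had a median of 0.28, none of them called, with ENO1 at 0.62 and 0.18 and TPI1 at 0.87 and 0.36. The 77 nuclear-encoded genes of the respiratory chain, which partner the mitochondrial subunits, had a median of 0.041 with none called. COX7C was at -0.12 and -0.48 and ATP5F1B at 0.18 and 0.14. The median of the 12 heavy-strand mRNAs was 0.88. Genes for mitochondrial RNA maintenance lay near the median of all genes, at -0.52 over 18. Of them, 2 were called lower (11.1%, beside 13.4% of all genes), PNPT1, a polynucleotide phosphorylase, and TWNK, the mitochondrial helicase. Neither was called with TMM or median-ratio factors. The RNA-binding LRPPRC, which stabilizes mitochondrial mRNAs, was at -0.50 and -0.65, and TFAM, which packages the mitochondrial genome, at -0.61 and -0.50. On the same list, SLIRP was higher than replicate 1 and lower than replicate 2, at 0.66 and -0.36, and GRSF1 was at -1.23 and -0.98.

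**Figure D3:**
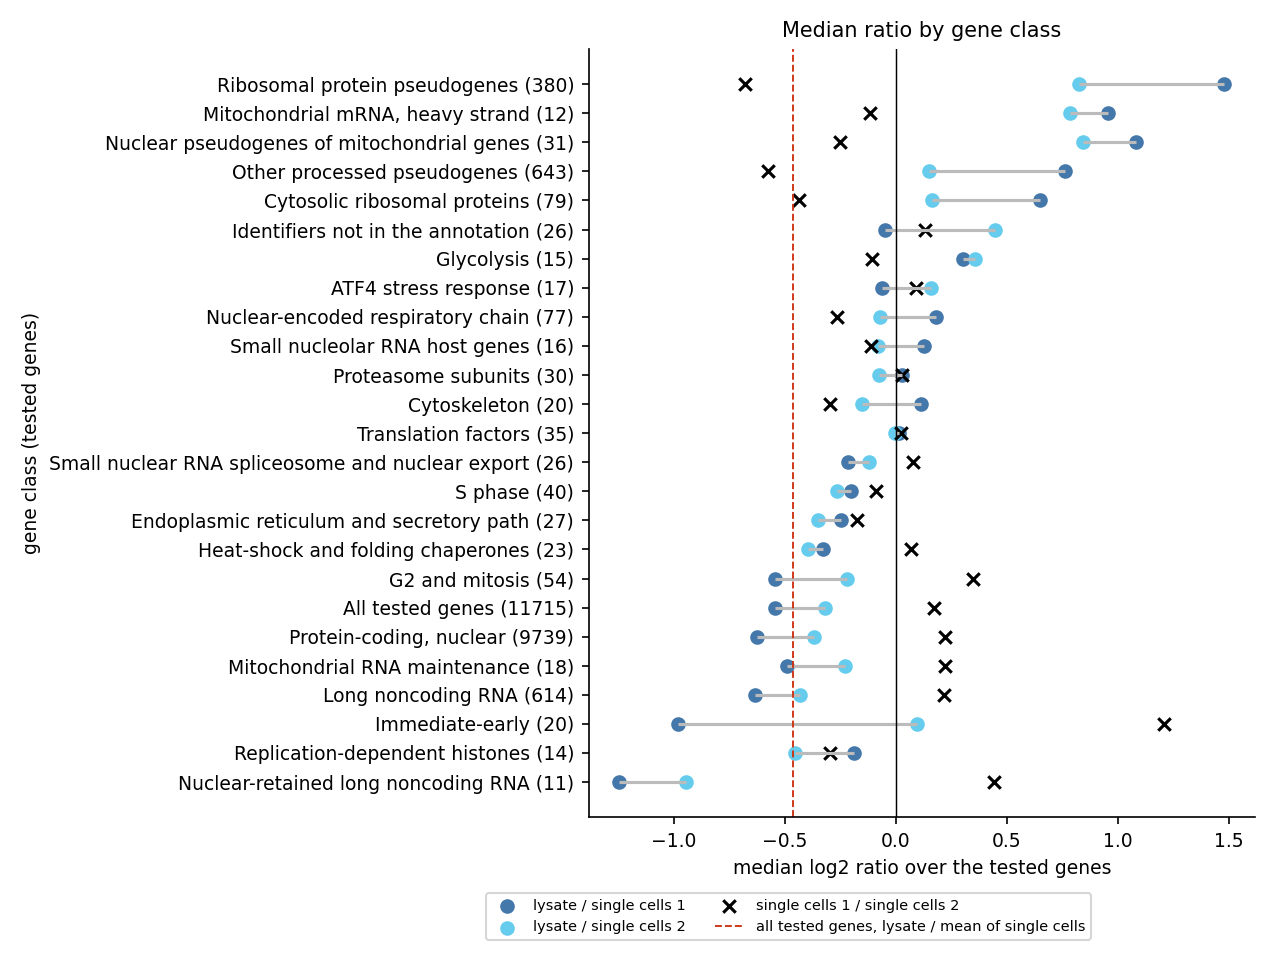
Median log2 ratio over the tested genes of each class, numbers in brackets, for the lysate over each single-cell library (circles) and for replicate 1 over replicate 2 (crosses). The dashed line is the median of all genes tested, -0.46, and ribosomal protein pseudogenes and mitochondrial mRNAs lie farthest above it.

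Of 11 long noncoding RNAs listed as held in the nucleus, 4 were called lower in the lysate (NEAT1, KCNQ1OT1, JPX and NORAD) and none higher, and the median of the list was -1.03. Among all genes 13.4% were called lower, and among all long noncoding RNAs 18.2%. With TMM or median-ratio factors 2 of the 11, NEAT1 and KCNQ1OT1, were called. NORAD is found mostly in the cytoplasm although it is on this list. NEAT1, the scaffold of paraspeckles, was at 13.6, 89.8 and 165 scaled UMIs in replicate 1, at 13.3, 48.6 and 381 in replicate 2 and at 12.4, 24.9 and 47.7 in the lysate. KCNQ1OT1, an antisense transcript of an imprinted locus, was at 18.1, 41.5 and 71.4, at 7.72, 19.7 and 112, and at 0, 4.08 and 15.9. The log2 ratios were -1.79 and -1.55 for NEAT1 and -2.99 and -2.45 for KCNQ1OT1, and the wells overlapped in both. MALAT1, a lncRNA of nuclear speckles, was at -0.87 and -0.43 and was not called. The highest single cell for both was AGACTC of replicate 2. Without it, the ratio of NEAT1 against replicate 2 was -0.74 and its call was lost, that of KCNQ1OT1 was -1.97 and kept, and 3 of the 11 were called.

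Most calls in the lists for the cell cycle, chaperones and translation were lower, as among all genes. Among the S-phase genes 5 of 40 were called lower, among them POLA1, of the primase complex, and SLBP, which binds histone mRNAs. Among the genes of G2 and mitosis 5 of 54 were, with TPX2, a spindle assembly factor, at -1.77 and -1.43. The medians of these lists were -0.24 and -0.38, above that of all genes. Chaperones had 5 of 23 called lower and 1 higher, with HSPA9, the mitochondrial HSP70, at -1.23 and -1.13 and the regulator HSF1 higher at 1.42 and 1.84. The initiation factor EIF4G1 was the 1 call among 35 translation factors (2.86%, beside 13.4% called lower among all genes). Its wells did not overlap, with medians of 61.0, 42.4 and 19.1 scaled UMIs. Each lysate well lay below each single cell for 0.12% of the genes tested. The share called lower in the S-phase list, 12.5%, in the G2 and mitosis list, 9.26%, and in the chaperones, 21.7%, stood beside 13.4% of all genes. With TMM factors these lists had 0, 3 and 1 called lower, and without the cell AGACTC 6, 4 and 3.

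Immediate-early genes, which are transcribed within minutes of a stimulus, differed most between the single-cell libraries themselves. FOS was at 2.68, 40.0 and 77.7 scaled UMIs in replicate 1, where all 10 cells held it, and was detected in 1 cell of replicate 2. The lysate wells were at 1.44, 5.19 and 17.9, overlapping both libraries, with a median between theirs. EGR1, a zinc finger transcription factor, was at a median of 38.8 in replicate 1, 0 in replicate 2 and 50.2 in the lysate. The log2 ratio between the single-cell libraries was 5.62 for FOS and 5.01 for EGR1. Against replicate 1 the lysate was at -2.48 for FOS, and against replicate 2 at 3.14. For this list no direction between lysate and cells can be given. Of 20 genes 1 was called lower (5%, beside 13.4% of all genes), and none without the cell AGACTC.

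The nuclear genes with the largest differences were single cases. ABCG5, a sterol transporter of liver and gut, held 16121 UMIs in single cells replicate 1 and 19819 in replicate 2 and 0 in the lysate. The single cells lay between 999 and 1811 scaled UMIs in replicate 1 and between 195 and 3000 in replicate 2. Against a floor of 3 UMIs over the lysate library, it was at least 3428-fold lower. CLEC18A, which encodes a C-type lectin, held 1824, 1902 and 0 UMIs, at least 350-fold lower (349.9), and RPL21P84 held 530, 546 and 0, at least 101-fold lower. In these 3 genes each single cell was above each lysate well, a pattern of 0.12% of the genes tested. In replicate 1, where reads were deposited, ABCG5 had 2.31 reads per UMI. Its mean over the 3 libraries, 1063 scaled UMIs, was the highest of the nuclear protein-coding genes tested. Read mapping was not examined, so whether these UMIs stem from ABCG5 mRNA was not tested. OR2AL1P and ENSG00000260109, both pseudogenes, were at least 15.8-fold and 14.7-fold lower.

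ARRDC3, an arrestin-domain gene, was at least 12.7-fold lower, and that bound was 4.51 against replicate 1 and 20.9 against replicate 2. The cell AGACTC, at 79.7 scaled UMIs where the median of replicate 2 was 1.78, carried the larger value, and without it the bound was 4.37 (4.23 against replicate 2). Other genes called lower depended on 1 library for their size. MYO18A, an unconventional myosin, held 46, 452 and 4 UMIs, FAM107A 15, 144 and 1, and KCNJ2, an inward rectifier potassium channel, 297, 36 and 5. PMFBP1 held 91, 113 and 2 UMIs.

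Of the 10 nuclear genes with the largest ratios, 6 were pseudogenes (RPL21P19, RPSAP45, RPSAP56, RPSAP8, ENSG00000242814 and ENSG00000213296) and 1 had an identifier that the annotation used here does not hold. RPL21P19 held 113, 25 and 438 UMIs and RPSAP8 31, 123 and 279. The other 3 were protein-coding. FADS3, of the fatty acid desaturase family, held 18, 19 and 119 UMIs, with medians of 1.197, 1.76 and 19.0 scaled UMIs and log2 ratios of 3.29 and 3.04. SNX33, a sorting nexin, held 13, 8 and 71 UMIs. NEFM, the medium neurofilament chain, held 16, 3 and 73 UMIs. It was detected in 2 cells of each single-cell library and in all 10 lysate wells, where the lowest, median and highest were 3.18, 12.1 and 19.5 scaled UMIs. Replicate 1 reached 13.2, so the wells overlapped.

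Across the 9739 nuclear protein-coding genes tested, the ratio was lower for longer transcripts. In the sixth of genes with the shortest canonical transcripts, of 227 to 1720 nucleotides, the median log2 ratio of lysate to cells was -0.044 and 2.71% were called lower. In the sixth with the longest, of at least 6612 nucleotides, it was -0.87 and 26.8% were called lower. The steps between were in the same order, -0.34, -0.49, -0.64 and -0.79. Between the single-cell libraries the medians lay between -0.085 and 0.31, and between 0.23 and 0.31 in all but the shortest sixth. The genes called lower had a median transcript of 5150 nucleotides, those called higher 2092 and the others 3312.

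Gene span and GC content moved with the ratio as well. Genes spanning up to 10248 base pairs had a median of -0.18 and those of at least 121646 base pairs -0.77. In the sixth of genes with the least GC, below 39.4%, the median was -0.81, and in that with the most, from 58.2%, it was -0.25. Span, length and GC are related to each other, and which of them the ratio follows was not tested. The difference by span was widest among highly expressed genes. The genes were also cut into 3 equal sets by mean, while the sixths by span were kept as cut over all of these genes. In the highest set, the 631 genes of the shortest sixth had a median of -0.054 and the 418 of the longest -0.99. In the lowest set they were at -0.32 and -0.58. Between the single-cell libraries the medians were -0.052 and 0.26 in the highest set and 0.18 and 0.14 in the lowest.

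**Figure D4:**
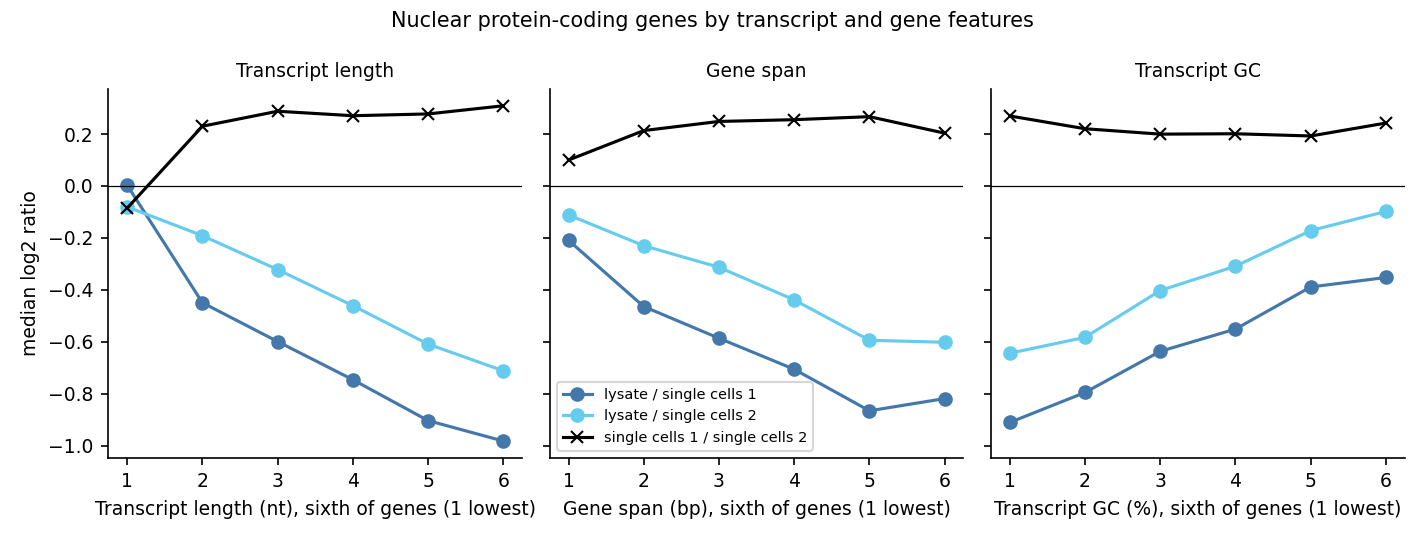
Median log2 ratio of nuclear protein-coding genes in sixths by transcript length, gene span and transcript GC, for the lysate over each single-cell library (circles) and for replicate 1 over replicate 2 (crosses). The lysate ratio declines with transcript length from -0.044 to -0.87 against the mean of the cells, and the ratio between single-cell libraries is nearly flat beyond the shortest sixth.

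At equal depth, single cells differed from each other more than lysate wells did. To compare spread at 1 depth, each well was thinned to 74047 UMIs and the coefficient of variation (CV) over the 10 wells was taken for the 1601 genes whose thinned mean reached 5 in all libraries. The median CV was 0.39 (0.385) and 0.42 (0.422) in the single cells and 0.34 (0.341) in the lysate. The mean difference of 0.062 turned to -0.027 when wells were left at the deposited depth, at which lysate wells hold fewer UMIs. After the counting variance was taken off, the median excess of the squared CV was 0.069, 0.098 and 0.025. This excess was above the lysate in both single-cell libraries for 941 genes, 58.8%, and below it in both for 262, 16.4%. At this depth a well held 8914 to 9650 genes in the lysate and 9459 to 12298 in the single cells.

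The histone gene H4C3, whose mRNA is made in S phase, had the largest difference in spread. It ranged from 5 to 239 thinned UMIs over the cells of replicate 1, with a median of 14, and from 6 to 342 in replicate 2, with a median of 37. The lysate wells lay between 83 and 143, with a median of 112 (111.5). The CV was 1.55, 1.47 and 0.18. H4C3 made up 68.0%, 71.4% and 88.8% of the UMIs of the replication-dependent histone list in the 3 libraries and was its 1 gene to reach the mean needed, so the list largely repeats it. Summed over the list, the CV was 131% and 138% in the single cells and 16.2% in the lysate, where counting alone gives 12.1%, 10.0% (10.03) and 8.80%. Without the highest cell of each library it was 87.8% and 122%.

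Cell cycle genes showed the same kind of spread. The summed S-phase list had a CV of 31.1% and 26.2% over cells and 6.86% over lysate wells, close to the 5.74% of counting. The G2 and mitosis list had 28.7% and 40.0% (40.01) over cells and 8.85% over lysate wells. CDC20, which activates the anaphase-promoting complex, ranged from 1 to 21 and from 0 to 20 thinned UMIs in the cells and from 3 to 9 in the lysate. Immediate-early genes had CVs of 44.2%, 51.1% and 16.3%.

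Metabolic and regulatory genes were among the 10 genes with the largest differences in spread besides H4C3 and CDC20. INSIG1, a feedback regulator of sterol synthesis, ranged from 3 to 43 and from 2 to 89 thinned UMIs in the cells and from 2 to 13 in the lysate. IDI1, an enzyme of the same pathway, ranged from 0 to 38, from 1 to 43 and from 13 to 29. ID2, an inhibitor of helix-loop-helix factors, had CVs of 1.03, 0.97 and 0.46. PSAT1, of serine synthesis, had 0.68, 0.70 (0.695) and 0.27, and TSC22D3, a glucocorticoid-induced gene, 0.76, 1.503 and 0.31. DDX52, STC2 and ZNF503 completed the 10.

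Mitochondrial genes varied little over lysate wells. All 12 heavy-strand mRNAs had a larger excess in both single-cell libraries than in the lysate, and 74 of 76 ribosomal protein genes did, beside the 58.8% of all genes. The summed heavy-strand mRNAs had a CV of 11.8%, 23.7% and 6.05%, and the ribosomal proteins 14.1%, 25.2% and 5.40%. Counting gives 1.04% to 1.63% for these sums, so lysate wells also varied beyond counting. Without the single cell AGACTC, replicate 2 was at 14.5% and 22.2%. These genes are counted deeply, which lets a small excess show.

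In other lists the difference was smaller or mixed. The summed proteasome subunits had CVs of 9.49%, 15.4% and 9.21%, and the genes of the endoplasmic reticulum 8.77%, 15.8% and 11.8%. Gene by gene, 8 of 23 proteasome genes (34.8%) and 13 of 20 genes of the endoplasmic reticulum (65.0%) had a larger excess in both single-cell libraries than in the lysate, beside 58.8% of all genes. In the reverse direction, MTR, MTF2, CANX, MALSU1 and ROCK1 had the largest excess in the lysate. CANX, a chaperone of the endoplasmic reticulum, ranged from 14 to 31 and from 20 to 45 thinned UMIs in the cells and from 10 to 70 in the lysate.

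**Figure D5:**
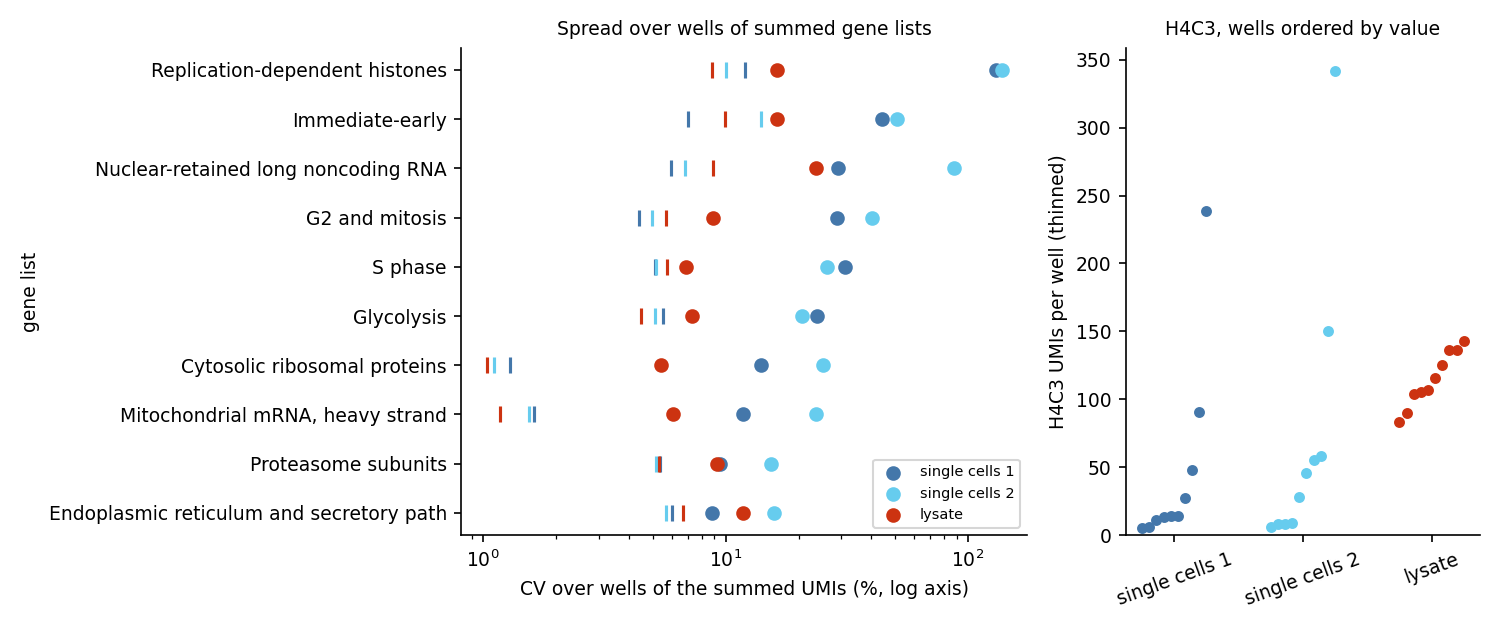
Left, CV over 10 wells of the UMIs summed over a gene list, in percent on a log axis, with vertical ticks for counting alone; right, thinned UMIs of H4C3 in each well, ordered by value. H4C3 spans 5 to 342 UMIs over single cells and 83 to 143 over lysate wells.

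The single cell AGACTC of replicate 2 joined the extremes of several of these lists. It had the lowest heavy-strand mitochondrial mRNA share of its library, 2.67%, and the highest share of nuclear long noncoding RNA, 0.956%. Its nuclear pseudogenes of mitochondrial genes were at 0.991% and its nuclear protein-coding genes at 77.4%. Without it, the summed nuclear long noncoding RNAs had a CV of 52.6% in place of 87.6% in replicate 2, against 29.2% in replicate 1 and 23.6% in the lysate.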

How the data were processed

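The deposited values are counts of UMIs per gene and well, made by the authors from reads demultiplexed with bcl2fastq 2.20, processed with zUMIs against GRCh38 and the ERCC sequences, subsampled to an equal depth, counted in exons and collapsed by UMI identity, without normalization. For single cells replicate 1, deposited counts of reads were used as well. The members, gene lists and comparisons were chosen with earlier results of these data known. Totals per well ranged from 74047 to 195438 UMIs. UMIs were divided by the well total, averaged by library and compared as log2 ratios with 0.5 added, for genes whose mean reached 1 scaled UMI. With 1 lysate library, no test was made. Named genes were the 15 mitochondrial mRNA and rRNA genes, the 10 highest and 10 lowest ratios among called nuclear genes whose mean reached 5, the 10 and 5 genes at the ends of the difference in excess spread, and genes of each list were those of highest mean, besides members past 2-fold, which were added after their values were seen. Spread used wells thinned without replacement. Of 28783 identifiers, 107 were not in the GENCODE 44 annotation used for names, types and lengths. The calculation was tested on simulated wells. Calculations used Python 3.11.15, numpy 2.4.6, pandas 2.3.3, scipy 1.17.1 and matplotlib 3.10.9, and edgeR 4.0.16 and DESeq2 1.42.0 in R 4.3.3 for alternative scaling factors only. Read mapping, introns and strand were not analysed here.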

Additional observations from a re-analysis of the deposited data

Results flagged for a closer look

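In each set of 10 wells, the distance of the highest or lowest well to its neighbour was set against the range by Dixon's 95% limit. Of 90 sets, over 30 measures, 11 held such a well, and chance gives about 1 in 20. The lysate well AGACTC stood apart by 3 measures. It held 123213 UMIs, against 90911 in the next well, and 11440 genes, against 10024, and translation factors took 1.37% of its UMIs, against 1.23%.

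The single cell AGACTC of replicate 2 stood apart by 5 measures. Its heavy-strand mitochondrial mRNAs took 2.67% of UMIs, against 5.14% in the next cell, its glycolysis genes 0.283%, against 0.474%, and its proteasome subunits 0.340%, against 0.465%. Nuclear-retained long noncoding RNA took 0.956%, against 0.440%, and small nucleolar RNA host genes 0.326%, against 0.234%.

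The other flags were 1 measure each. The cell GTGACA of replicate 1 had 0.419% of its UMIs in replication-dependent histones, against 0.184%. In replicate 2, the cell AGCTTC had 0.803% in S-phase genes, against 0.582%, and the cell ACTCGA 0.251% in genes of the ATF4 stress response, against 0.174%.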

How the results depend on the processing

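The lysate is 1 library, which limits each difference from the cells, and low counts limit single genes. The ratio of mitochondrial shares stayed between 1.61 and 1.93 under all alternatives, and those were its values without either single-cell library. In reads, the share of replicate 1 was 13.1% (13.08). Without either library, the genes called higher were 546 to 865 and lower 2211 to 3518, the median of all genes was -0.58 to -0.34 and the difference in median CV, 0.062 as reported, was 0.044 to 0.080. The calls higher and lower were 639 and 839 with TMM factors, 680 and 774 with median-ratio factors, 178 and 737 with a mean of at least 5, and 1095 and 3453 between the wells assigned the ERCC mix. With 1 UMI added, 965 were lower, and without the single cell AGACTC of replicate 2, 343 were higher and 1264 lower. The median of all genes was -0.11, -0.071 and, with any UMI, -0.21.

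The difference in median CV was -0.027 at the deposited depth, where lysate wells hold fewer UMIs, 0.14 (0.142) with a mean of at least 20 and 0.090 (0.0895) with the A60 wells of the lysate. Against the median of all genes, replication-dependent histones lay at -0.16 without replicate 1 and reversed without replicate 2 (0.48), without the cell AGACTC (0.16), with TMM factors (0.0015), with median-ratio factors (0.0030) and with a mean of at least 5 (0.37). With any UMI, S-phase genes (-0.050), genes of G2 and mitosis (-0.17), chaperones (-0.15) and long noncoding RNA (0.026) reversed. Between ERCC wells, genes of G2 and mitosis (-0.23), chaperones (-0.10), immediate-early genes (0.43) and MT-ND5 (-0.088) reversed, and without replicate 1 chaperones (-0.076, and 0.25 without replicate 2) and immediate-early genes (0.63, and -0.30 without replicate 2). The cause of these was not tested. No paired analysis was possible because the lysate has 1 library and shares fewer than 2 replicate numbers with the cells. Alternatives on pseudogenes and on single wells were chosen after seeing the data.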
